A study of Mus musculus with 2 samples.

Results

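The D-type cyclins, the kinases they activate and the inhibitors of those kinases were described in the mouse retina at E14.5. They are 10 genes, *Ccnd1*, *Ccnd2*, *Ccnd3*, *Cdk4*, *Cdk6*, *Cdkn1a*, *Cdkn1b*, *Cdkn1c*, *Cdkn2c* and *Cdkn2d*. They were chosen by symbol, and all 10 were found among the 28692 genes of the count matrices. The study sorted dissociated retinas of *LHX4::GFP* mice, strain Tg(Lhx4::EGFP)KN199Gsat/Mmucd, in which a bacterial artificial chromosome carrying the *Lhx4* locus drives GFP, to obtain early cone photoreceptors. Before the sort, the retinas of 2 litters were combined in 1 suspension. The GFP+ gate, labelled as cone photoreceptors, and the GFP- gate, labelled as retinal cells, gave 1 droplet library each, and cells of both gates came from mice that carried the transgene, which the study kept as heterozygotes. No embryo can be told from another in the pool.

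D-type cyclins bind CDK4 or CDK6, and these complexes phosphorylate the retinoblastoma protein, which frees E2F factors to switch on genes for DNA replication. Proteins of the INK4 family, among them the products of *Cdkn2c* and *Cdkn2d*, bind CDK4 and CDK6 and keep the cyclin out. Proteins of the CIP/KIP family, the products of *Cdkn1a*, *Cdkn1b* and *Cdkn1c*, bind cyclin-kinase complexes and restrain CDK2 in particular. In the embryonic retina *Ccnd1* is known as the main D-type cyclin of dividing progenitor cells, and *Cdkn1b* and *Cdkn1c* are known for their part in cell cycle exit.

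Each captured transcript was tagged at its 3' end with a unique molecular identifier (UMI). The UMIs of all cells in a set were added up and divided by the set's total to give counts per 1000000 UMIs (CPM), with 95% exact Poisson intervals. Ratios carry 95% exact intervals that condition on the sum of both counts. These tag counts do not scale with transcript length, and CPM of different genes are set side by side below. How well the transcripts of each gene were captured was not measured, so comparisons between genes are approximate. After filters on genes per cell and mitochondrial UMIs, 3689 of 3728 GFP+ cells (15503658 UMIs, median 3894 per cell) and 3389 of 4445 GFP- cells (30094636 UMIs, median 8848) were kept. With 1 library per gate there were no replicates. The intervals cover counting error only, no test was made, and a gene was called higher or lower where its CPM ratio passed 2-fold.

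The gates differed most in *Ccnd1*. The GFP+ cells held 734 *Ccnd1* UMIs, or 47.3 CPM (44.0 to 50.9), and the GFP- cells 44729 UMIs, or 1486 CPM (1473 to 1500), a level 31.4-fold lower (29.2 to 33.8) in GFP+ cells. *Cdk6*, the less abundant of the kinases, was at 3.16 CPM (2.34 to 4.18) and 49.2 CPM (46.7 to 51.7), 15.6-fold lower (11.7 to 21.1) in GFP+ cells. The INK4 gene *Cdkn2c* was at 1.68 CPM (1.10 to 2.46) and 16.3 CPM (14.9 to 17.8), 9.73-fold lower (6.56 to 15.0). These 3 genes were the members past 2-fold. Thus 3 of 10 members were called lower and 0 higher in GFP+ cells, where 16.8% of 15236 genes tested were called lower and 23% higher. The median log2 ratio of the members was -0.29, beside 0.29 over all genes tested.

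The other 7 members differed less between the gates. *Cdk4*, by far the more abundant kinase, was at 504 CPM (493 to 515) in the GFP+ and 985 CPM (973 to 996) in the GFP- gate, 1.96-fold lower (1.91 to 2.00). *Ccnd3* was at 173 CPM (167 to 180) and 122 CPM (118 to 126), a ratio of 1.42 (1.35 to 1.49). Both genes were therefore abundant on either side of the sort. The 3 CIP/KIP genes had higher CPM in GFP+ cells, though not more UMIs per cell. *Cdkn1c* was at 433 CPM (423 to 443) and 249 CPM (243 to 254), a ratio of 1.74 (1.68 to 1.80). *Cdkn1b* was at 43.7 CPM (40.5 to 47.2) and 25.1 CPM (23.3 to 26.9), a ratio of 1.75 (1.57 to 1.94). *Cdkn1a* was at 18.0 CPM (15.9 to 20.2) and 9.20 CPM (8.15 to 10.4), just short of the threshold at 1.96-fold (1.65 to 2.32). *Ccnd2* (15.3 and 20.3 CPM) and *Cdkn2d* (49.4 and 55.7 CPM) lay close together, with ratios of 0.752 and 0.888.

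**Figure D1:**
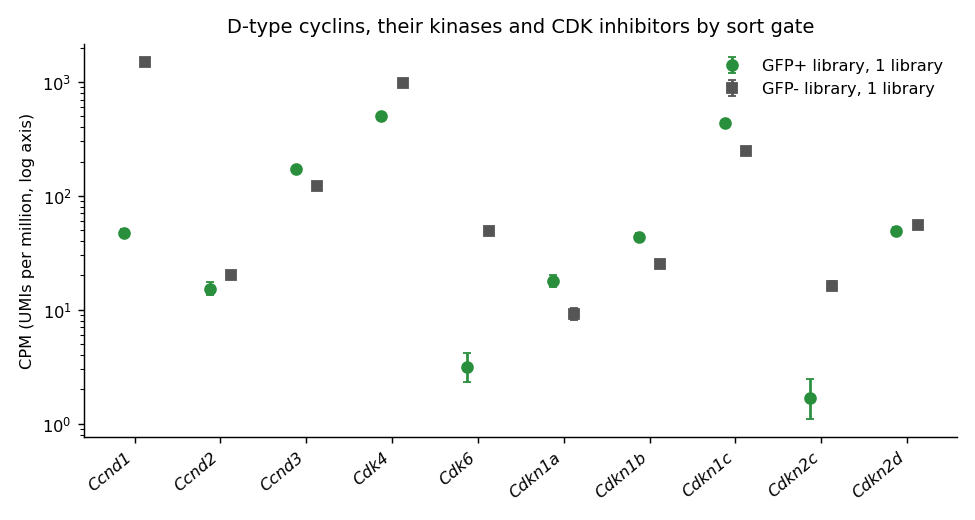
CPM of the 10 genes (log axis) in kept GFP+ cells (circles) and GFP- cells (squares), 1 library each, with bars for 95% Poisson intervals. *Ccnd1*, at 47.3 and 1486 CPM, *Cdk6*, at 3.16 and 49.2 CPM, and *Cdkn2c*, at 1.68 and 16.3 CPM, are furthest apart, and the 3 CIP/KIP genes lie higher in GFP+ cells as CPM, though not as UMIs per cell.

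The direction of the smaller ratios depended on the scale. GFP+ cells held fewer UMIs per cell, and per cell rather than as CPM the log2 ratios of *Ccnd3*, *Cdkn1a*, *Cdkn1b* and *Cdkn1c* were -0.57, -0.11, -0.28 and -0.28. On that scale the median over all genes moved by -1.08, and *Cdk4* was at -2.05. Under TMM factors, which moved it by -0.33, *Cdk4* was at -1.29 and so past 2-fold. *Ccnd1*, *Cdk6* and *Cdkn2c* were past 2-fold lower on each of these scales. A lower UMI total per cell and a smaller amount of RNA per cell cannot be told apart here.

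Cells were then placed in groups by at least 3 UMIs of marker genes that hold none of the 10 members. Cone-like cells carried *Thrb*, *Rxrg*, *Gngt2*, *Gnb3*, *Pdc* or *Gnat2*; retinal ganglion cell (RGC)-like cells *Pou4f2*, *Isl1*, *Rbpms*, *Sncg*, *Nefl* or *Nefm*; and amacrine or horizontal cell (AC/HC)-like cells *Tfap2a*, *Tfap2b*, *Ptf1a* or *Lhx1*. Of the remaining cells, those with *Olig2*, *Neurog2* or *Atoh7*, transcription factors of progenitor cells about to produce neurons, were called neurogenic-RPC-like. Those left with progenitor markers, among them *Hes1*, *Nr2e1*, *Sfrp2* and *Fgf15*, were called multipotent-RPC-like, where RPC stands for retinal progenitor cell. The GFP+ gate was 98.0% cone-like (3615 cells), as its label says. The GFP- gate held 1742 multipotent-RPC-like, 606 neurogenic-RPC-like, 521 RGC-like, 305 AC/HC-like and 73 cone-like cells, with 80 mixed and 62 unassigned. Each cell was also assigned to G1, S or G2M from the expression of 43 S and 54 G2M genes, again without a member. Of all kept cells, 14.8% lay within 0.05 of a boundary between phases, and the G1 call covers cells that have left the cycle. Of the 1742 multipotent-RPC-like cells, 46 were called G1, 1199 S and 497 G2M. The scores were made over all cells together, so progenitors called S may include cells in G1, which was not tested.

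Markers of other cell types were low in both gates. The summed level of 4 lens, 5 pigment epithelium, 6 red blood cell and 4 mesenchyme markers was 0.964 to 11.5 CPM per list and gate. Microglia markers summed to 26.96 CPM in the GFP+ and 8.01 CPM in the GFP- gate, with *Aif1* and *Csf1r* at 0 in GFP+ cells. Endothelium markers summed to 9.48 and 64.0 CPM, mostly *Kdr* at 35.7 CPM in GFP- cells, and *Cdh5* was at 0 in both. Rod markers summed to 32.2 and 0.864 CPM, nearly all of it *Nrl*. The libraries shared 20 cell barcodes, 15 of them among kept cells. A further 1055 cells of the GFP- gate, with a median of 14919 UMIs, lay above the upper limit of 3500 genes, and the group levels below are those of the cells that remained. Among RGC-like cells this limit removed more than it kept.

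In 1 group, cells went against the label. The 81 RGC-like cells called S or G2M held progenitor transcripts at high levels, with *Sfrp2* at 954 CPM and *Fgf15* at 1217 CPM. In them *Sncg* and *Gap43*, genes of young ganglion cells, were at 97.1 and 74.97 CPM, beside 1804 and 2079 CPM in the 440 RGC-like cells called G1. *Gap43* and the split by phase were chosen after the values were seen. RGC-like values are therefore given for all cells and for G1 cells. *Cdkn1a*, at 4.31 CPM over all RGC-like cells and 4.42 CPM in G1, and *Cdkn1b*, at 23.2 and 22.8 CPM, hardly depended on that choice.

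Relative to multipotent-RPC-like cells, 3 of 10 members passed 2-fold in neurogenic-RPC-like cells (1 higher, 2 lower), where 5.54% of genes tested were higher and 9.94% lower. In RGC-like cells it was 6 (1 higher, 5 lower, beside 15.1% and 18.1% of genes; in their G1 cells 2 and 5, beside 16.3% and 21% of genes), and in AC/HC-like cells also 6 (1 and 5, beside 17% and 19.9%). In GFP+ cone-like cells 2 members were higher and 4 lower, beside 29.3% and 15.9%. The members' median log2 ratio was 0.30, -1.40, -1.35 and -0.45 in these 4 groups, and that of all genes -0.04, -0.05, 0.07 and 0.41. The members that were lower were *Ccnd1*, *Ccnd2*, *Ccnd3*, *Cdk6* and *Cdkn2c*, in different combinations, and those that were higher came from *Cdkn1a*, *Cdkn1c* and *Cdkn2d*.

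*Ccnd1* had the widest range of the 10 genes. It was at 2173 CPM in multipotent-RPC-like cells, 1569 in neurogenic-RPC-like cells, 251 in RGC-like cells, 54.8 in AC/HC-like cells and 16.4 in GFP+ cone-like cells. The level was 1.39-fold lower in neurogenic-RPC-like cells than in multipotent-RPC-like cells, 8.67-fold lower (8.21 to 9.16) in RGC-like cells, 39.6-fold lower (33.1 to 47.9) in AC/HC-like cells and 132-fold lower (117 to 151) in GFP+ cone-like cells. Among cells called G1 the 3 neuron groups were lower still, at 55.0 CPM in RGC-like (39.5-fold below multipotent-RPC-like cells, 34.9 to 44.9), 47.7 in AC/HC-like and 8.97 in cone-like cells. The ganglion cell value rested on where the marker limit was set. With 2 marker UMIs the log2 ratio of all RGC-like cells was -1.40 in place of -3.12, and with 5 it was -4.91. The AC/HC-like and cone-like ratios, -5.31 and -7.05, were -3.54 and -5.62 when the upper limit on genes was lifted.

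Within the progenitor groups *Ccnd1* differed between S and G2M mainly in neurogenic-RPC-like cells, and was lower in G1 in both groups. Multipotent-RPC-like cells held 2166 CPM in S and 2288 CPM in G2M, a ratio of 1.06. The 46 of them called G1 held 937 CPM, 2.31-fold lower (2.08 to 2.57) than those in S. Neurogenic-RPC-like cells held 2640 CPM (2570 to 2711) in S, 1052 CPM (1011 to 1095) in G2M and 238 CPM (204 to 276) in G1. Their level was thus above that of multipotent-RPC-like cells in S and 2.17-fold lower in G2M. From S to G2M it was 2.51-fold lower (2.39 to 2.63) in neurogenic-RPC-like cells, and in their G1 cells 7.54-fold lower (6.49 to 8.79) than in their S and G2M cells together. When cells were thinned to equal depth, the last difference was smaller, with a log2 ratio of -2.07 in place of -2.91, and without cells near a phase boundary it was -3.70.

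The G2M cells were then divided by *Olig2*, a factor of progenitors in their last divisions. This split and the other subsets of groups below were chosen after the data had been seen. In G2M, *Ccnd1* was at 584 CPM in 110 *Olig2*+ cells and 1411 CPM in 150 *Olig2*- cells, 2.42-fold lower (2.20 to 2.65). In S phase it was at 2098 CPM in 47 *Olig2*+ and 2758 CPM in 196 *Olig2*- cells, 1.31-fold lower. The lower level in *Olig2*+ cells was therefore more marked in G2M than in S. That difference was not tested.

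The same order appeared cell by cell. At 3200 UMIs per cell, the percentage of cells with no *Ccnd1* UMI was 1.34 in multipotent-RPC-like S, 2.43 in multipotent-RPC-like G2M and 2.90 in neurogenic-RPC-like S cells, with a median of 7, 7 and 8 UMIs. It was 43.0 in neurogenic-RPC-like G2M cells, 56.9 in the *Olig2*+ and 32.9 in the *Olig2*- cells among them, while 10.1% of all these G2M cells still held 10 UMIs or more. It was 77.5 in neurogenic-RPC-like G1 cells, 83.8 in RGC-like G1, 87.7 in AC/HC-like G1 and 97.2 in cone-like G1 cells. Neurogenic-RPC-like G2M cells thus included cells without and cells rich in *Ccnd1*, whereas progenitors called S nearly all held it.

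**Figure D2:**
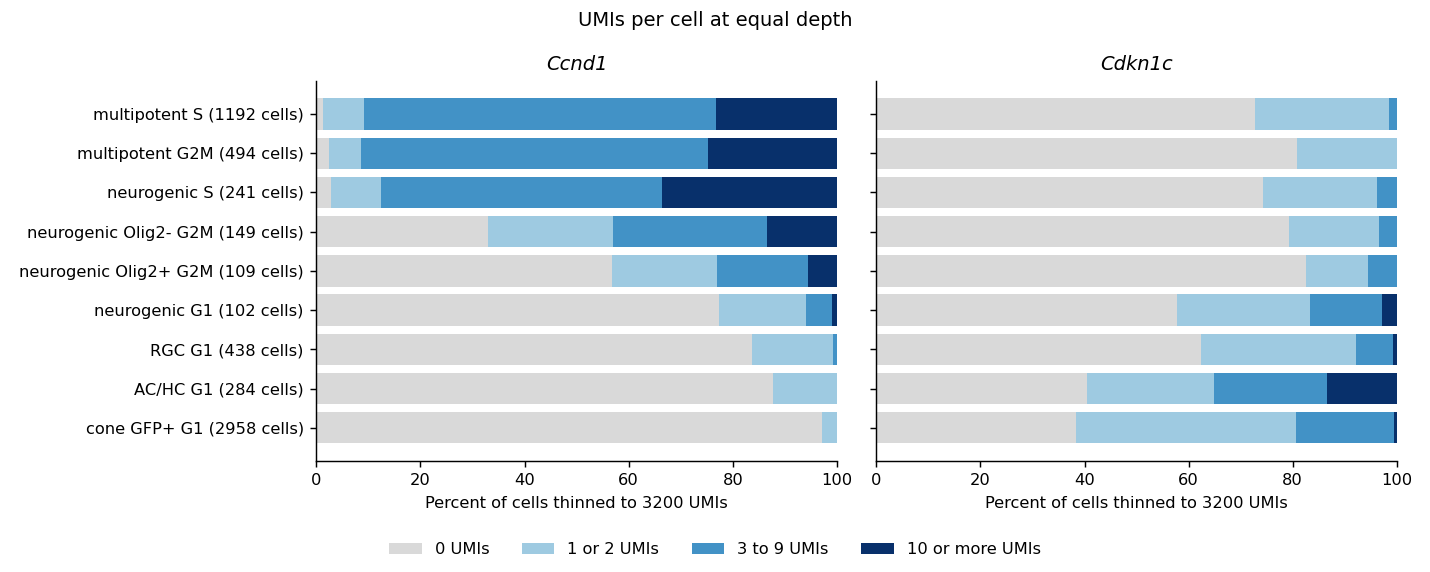
Percentage of cells, each thinned to 3200 UMIs, with 0, 1 to 2, 3 to 9 and 10 or more UMIs of *Ccnd1* and *Cdkn1c* in 9 sets of 102 to 2958 cells. Cells without *Ccnd1* make up 1.34% of multipotent-RPC-like S cells, 43.0% of neurogenic-RPC-like G2M cells before the split by *Olig2*, and 97.2% of cone-like G1 cells, and cells with 10 or more *Cdkn1c* UMIs are most common among AC/HC-like cells, at 13.4%.

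RNA set free from lysed progenitors can give UMIs in neurons, so *Ccnd1* was set beside other progenitor genes. In RGC-like G1 cells *Ccnd1* stood at 2.53% of its multipotent-RPC-like level, beside 4.26% for *Sfrp2*, 1.71% for *Hes1*, 2.00% for *Fgf15* and 2.05% for *Nr2e1*. In AC/HC-like G1 cells it stood at 2.20%, and these 4 markers at 3.33% to 12.0%. In cone-like G1 cells it stood at 0.413%, and the markers at 0.104% to 1.47%. The residual *Ccnd1* of the neurons was thus in the range of these progenitor markers in each group or below it, and the part of free RNA was not tested. *Cdk4*, at 104%, 127% and 53.7%, was outside that range in all 3 groups, as was *Ccnd3* in RGC-like (13.4%), AC/HC-like (21.6%) and cone-like (99.5%) G1 cells.

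Few cells held most of the *Ccnd1* of the GFP+ gate. Of its 734 UMIs, 245 (33.4%) lay in 18 multipotent-RPC-like cells, 237 (32.3%) in 14 neurogenic-RPC-like cells and 246 (33.5%) in the 3615 cone-like cells. Of these 246 UMIs, 117 lay in 9 cells with at least 3 *Ccnd1* UMIs, 6 of which were called S. In these 9 cells *Ccnd1* was at 1720 CPM and *Cdk6* at 103 CPM, with *Sfrp2* at 750 and *Fgf15* at 926 CPM beside the cone gene *Gngt2* at 573 CPM. These cells thus held both progenitor and cone transcripts. *Gngt2* was at 1926 CPM over all cone-like cells. The 9 cells had a median of 6398 UMIs, beside 3882 over all cone-like cells. None of the 9 was called a doublet, but only 2 of 3689 kept GFP+ cells were, so the 9 may include uncalled doublets. Without these 9 cells the cone-like level of *Ccnd1* was 8.64 CPM. In the 73 cone-like cells of the GFP- gate *Ccnd1* was at 92.1 CPM, 5.61-fold higher (3.86 to 7.95) than in GFP+ cone-like cells, and *Gngt2* at 572 CPM. The 37 *Ccnd1* UMIs of these GFP- cells lay in 13 cells, up to 24 in a cell, so that ratio rests largely on few cells.

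*Ccnd3* was the D-type cyclin of the cone-like cells. Its level was 177 CPM in multipotent-RPC-like, 79.1 in neurogenic-RPC-like, 42.0 in RGC-like, 39.0 in AC/HC-like and 174 in GFP+ cone-like cells. It was 2.24-fold lower (2.01 to 2.49) in neurogenic-RPC-like cells than in multipotent-RPC-like cells, 4.22-fold lower in RGC-like cells (7.48-fold in their G1 cells, at 23.6 CPM) and 4.53-fold lower in AC/HC-like cells, whereas the cone-like ratio was 0.986. Cone-like and multipotent-RPC-like cells thus stood at nearly the same CPM, and the other groups below both. The neurogenic-RPC-like call was lost with 2 marker UMIs, at a log2 ratio of -0.99. By phase *Ccnd3* was at 179 and 172 CPM in multipotent-RPC-like S and G2M cells, and at 106, 56.0 and 78.9 CPM in neurogenic-RPC-like S, G2M and G1 cells. In *Olig2*+ cells it was 3.43-fold lower in S (35.2 and 121 CPM) and 3.12-fold lower in G2M (25.4 and 79.5 CPM) than in *Olig2*- cells. Among GFP+ cone-like cells it was at 209 CPM in 1481 cells with *Fabp7* and 147 CPM in 2134 without, a ratio of 1.42.

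Because *Ccnd1* and *Ccnd3* differed so much between groups, the make-up of D-type cyclin transcripts differed as well. *Ccnd1* made up 91.2% of the D-cyclin UMIs of multipotent-RPC-like cells, 95.6% in neurogenic-RPC-like S, 94.4% in their G2M and 71.8% in their G1 cells. It made up 67.8% in RGC-like G1, 54.9% in AC/HC-like G1 and 4.48% in cone-like G1 cells. *Ccnd3* made up 7.42% of the multipotent-RPC-like and 87.8% of the cone-like G1 total, and *Ccnd2* 1.33% and 7.75%. Cone-like cells were the group here in which most D-cyclin UMIs were *Ccnd3*.

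*Ccnd2* was the least abundant D-type cyclin in each GFP- group, and in GFP+ cone-like cells it was close to *Ccnd1* and above it among G1 cells. It was at 31.7 CPM in multipotent-RPC-like, 11.03 in neurogenic-RPC-like, 6.56 in RGC-like and 15.1 in GFP+ cone-like cells, and AC/HC-like cells held 2 UMIs. Relative to multipotent-RPC-like cells it was 2.88-fold lower (2.19 to 3.85) in neurogenic-RPC-like, 4.84-fold lower in RGC-like, 34.2-fold lower (9.41 to 283) in AC/HC-like and 2.097-fold lower (1.79 to 2.46) in cone-like cells. In RGC-like G1 cells it was at 2.43 CPM (11 UMIs), 13.1-fold lower (7.24 to 26.3). The cone-like call was lost in thinned cells, at a log2 ratio of -0.93.

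Few progenitors carried most of the *Ccnd2*. Of the 511 *Ccnd2* UMIs of multipotent-RPC-like cells, 261 lay in 51 of 1742 cells, up to 29 in a cell, and 1498 cells held none. The 46 multipotent-RPC-like cells called G1 held 187 CPM (146 to 235), beside 33.0 CPM in S and 16.8 CPM in G2M. The 51 cells held *Wfdc1* at 112 CPM, beside 18.9 CPM in the cells without *Ccnd2*. They also held more *Otx1* (24.6 and 3.08 CPM), *Gja1* (22.8 and 2.86 CPM) and *Pax2* (35.1 and 2.71 CPM), genes known from the rim of the optic cup and the optic stalk. In the 51 cells these levels came from 14, 13 and 20 UMIs, found in 21.6%, 13.7% and 15.7% of cells. Most of the 51 cells thus held no UMI of any given one of these genes. The shares were 2.60%, 2.60% and 1.87% in the cells without *Ccnd2*. These genes were chosen after their values were seen. In the same cells *Ccnd1* was 1.74-fold lower (1290 and 2242 CPM), *Cdkn1c* 3.20-fold higher (281 and 87.7 CPM) and *Cdkn2c* was found as 1 UMI. Of the 51 cells 9 were called G1, 37 S and 5 G2M, beside 46, 1199 and 497 of all 1742. The part of this unlike mix of phases in these differences was not tested.

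*Cdk4* varied least of the abundant members. It was at 919 CPM in multipotent-RPC-like, 1167 in neurogenic-RPC-like, 971 in RGC-like, 1170 in AC/HC-like and 496 in GFP+ cone-like cells, and no group passed 2-fold. The cone-like cells were lowest, 1.85-fold below multipotent-RPC-like cells. Levels stayed high in cells called G1, at 1283 CPM in neurogenic-RPC-like, 952 in RGC-like and 1167 in AC/HC-like cells. Among RGC-like G1 cells *Cdk4* was at 1413 CPM in 96 cells with no UMI of *Rbpms*, *Sncg*, *Nefl* or *Nefm*, at 1263 CPM in 76 cells with 1 or 2, and at 741 CPM in 268 cells with 3 or more. These 4 genes mark later ganglion cells, and the level in the last set was 1.91-fold lower (1.78 to 2.05) than in the first. Among these kept G1 cells *Cdk4* thus was lower where the markers of later ganglion cells were higher. In 588 RGC-like cells that the upper limit on genes had removed, more than the 521 kept, *Cdk4* was at 568 CPM. The levels of the 4 later markers in the removed cells are not given here.

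*Cdk6* had the pattern of *Ccnd1* at a lower level. It was at 70.9 CPM in multipotent-RPC-like, 46.6 in neurogenic-RPC-like, 13.3 in RGC-like, 5.58 in AC/HC-like and 2.00 in GFP+ cone-like cells. Relative to multipotent-RPC-like cells this was 5.33-fold lower in RGC-like, 12.7-fold lower in AC/HC-like and 35.5-fold lower (24.7 to 52.8) in cone-like cells. In RGC-like G1 cells it was at 3.76 CPM (17 UMIs), 18.9-fold lower (11.7 to 32.5). In S and G2M it was at 71.6 and 71.9 CPM in multipotent-RPC-like and 64.9 and 40.3 CPM in neurogenic-RPC-like cells. Neurogenic-RPC-like G1 cells held 12 UMIs, 16.1 CPM, 3.23-fold lower than their S and G2M cells. *Cdk4* accordingly made up 92.8% of kinase UMIs in multipotent-RPC-like cells and 99.7% in cone-like G1 cells.

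The promoter of *Cdk6* is shown because, among the member promoters searched, only it held TTTNNCGC, a loose E2F-type pattern in which N is any base. Motifs were searched on both strands of the 250 bases before each start, for the 7 members that RefSeq's table for GRCm38.p6 held, which were *Ccnd3*, *Cdk4*, *Cdk6*, *Cdkn1a*, *Cdkn1b*, *Cdkn2c* and *Cdkn2d*. TTTNNCGC was found in 4.28% of 32851 promoters. It lay 198 bases before the *Cdk6* start, in the stretch chr5:3343643-3343731 (GRCm38.p6, + strand), which no annotated exon overlaps, and the match is in capitals:
Cdk6: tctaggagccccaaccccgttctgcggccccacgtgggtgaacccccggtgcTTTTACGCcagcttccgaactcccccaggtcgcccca
The match describes these letters and is no evidence of binding. The start used is that of RefSeq, and the stretch lies inside the *Cdk6* gene of the GENCODE M21 annotation, which begins at chr5:3341485. Neither TTTGAA, the core of the CHR motif of genes with late cell cycle expression, found in 15.99% of promoters, nor TGATGNAA, the ATF4-type motif, found in 3.45%, lay in any window of these 7 genes, of which *Ccnd3*, *Cdkn1a* and *Cdkn2c* had 2 starts each.

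**Figure D3:**
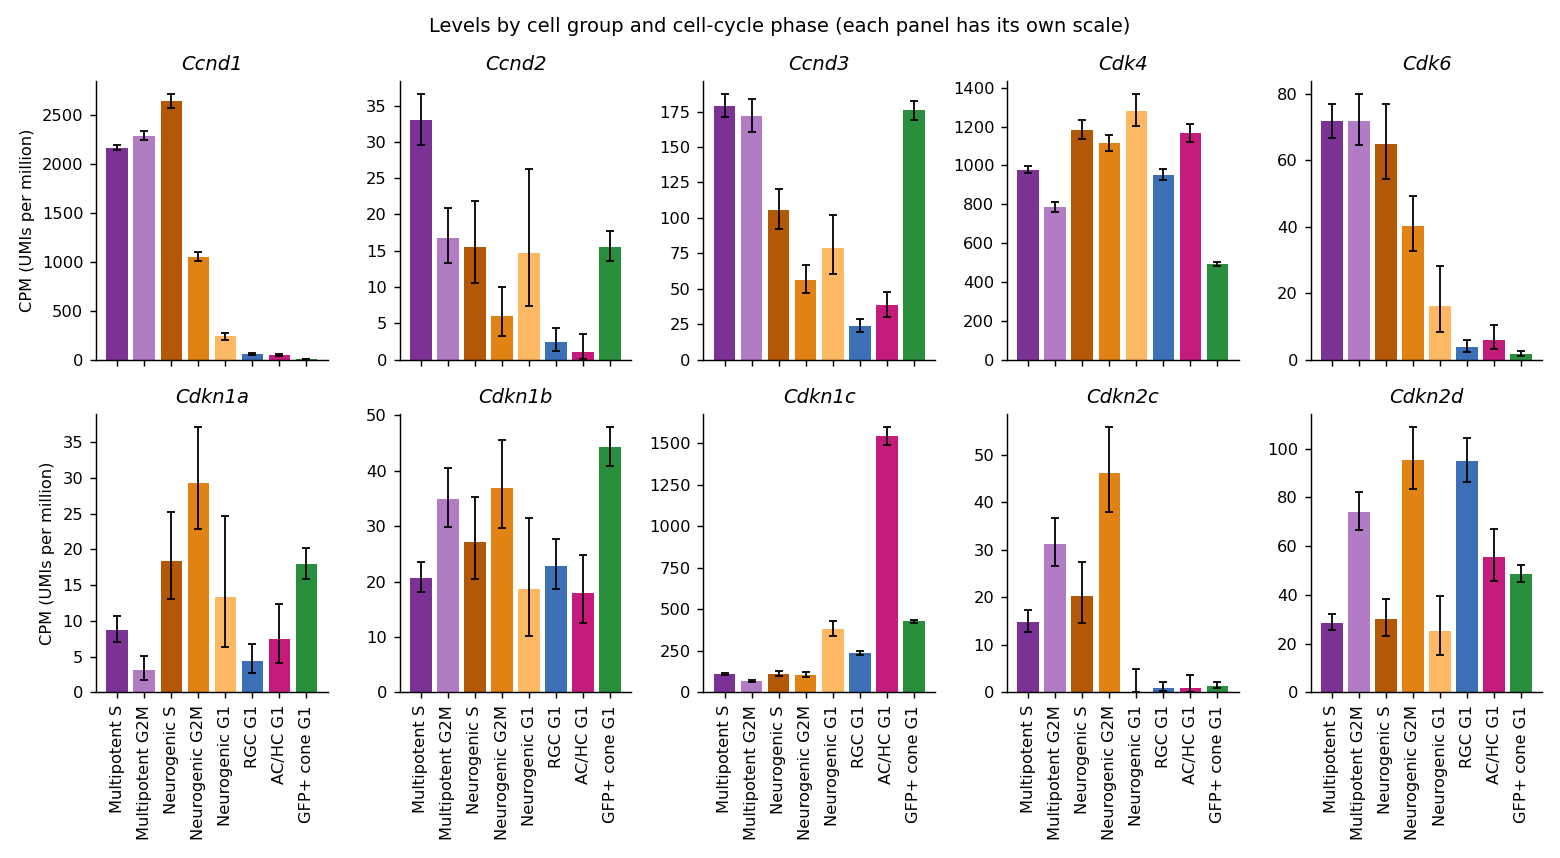
CPM of the 10 genes in 8 sets of cells by group and phase, 1 panel per gene with its own linear scale from 0, and bars on the columns for 95% Poisson intervals. *Ccnd1* stands at 2166 and 2640 CPM in multipotent-RPC-like and neurogenic-RPC-like S cells and at 8.97 CPM in cone-like G1 cells, *Cdkn1c* at 1540 CPM in AC/HC-like G1 cells, and *Cdkn2c* and *Cdkn2d* are higher in G2M than in S in both progenitor groups.

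*Cdkn1c*, an imprinted gene, was the most abundant inhibitor in each of these groups. It was at 107 CPM in multipotent-RPC-like, 148 in neurogenic-RPC-like, 212 in RGC-like, 1459 in AC/HC-like and 428 in GFP+ cone-like cells. Relative to multipotent-RPC-like cells it was 13.7-fold higher (12.9 to 14.5) in AC/HC-like and 4.01-fold higher (3.80 to 4.23) in cone-like cells, and 1.98-fold higher in RGC-like cells. In RGC-like G1 cells it was at 236 CPM and passed the threshold, at 2.21-fold higher (2.05 to 2.39). Over all phases together, each neuron group thus held more *Cdkn1c* than either progenitor group. It was also higher in G1. Neurogenic-RPC-like cells held 112, 106 and 380 CPM in S, G2M and G1, and their G1 level was 3.49-fold higher (3.00 to 4.04) than that of the other phases. The few multipotent-RPC-like cells called G1 held 511 CPM, 4.65-fold above those in S. Among cells called G1, RGC-like cells were therefore below both progenitor groups. GFP+ cone-like cells, 96.5% of them called G1, were below the multipotent-RPC-like and above the neurogenic-RPC-like G1 level. Only AC/HC-like cells were above both progenitor groups by a wide margin. *Ccnd1* and *Cdkn1c* therefore differed in opposite directions between cycling progenitors and each set of G1 cells.

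Within the AC/HC-like group *Cdkn1c* was unevenly spread. Of 305 cells, 88 held none, and 65 with at least 10 UMIs held 2592 of 3139 UMIs, 5284 CPM, with a maximum of 166 in 1 cell. The 10% of cells with the most UMIs held 66.0% of the total. *Ptf1a*, a factor of amacrine and horizontal precursors, was at 748 CPM in the 65 cells and 790 CPM in the cells with none, and *Tfap2b* at 677 and 658 CPM. *Btg2* (38.7 and 351 CPM) and the neurogenic marker *Atoh7* (12.2 and 207 CPM) were lower in the 65 cells. Across groups *Btg2* was at 39.9 CPM in multipotent-RPC-like, 566 in neurogenic-RPC-like and 608 in GFP+ cone-like cells, so its level alone does not place cells by stage. In 32 AC/HC-like cells with *Lhx1*, a horizontal cell gene, *Cdkn1c* was at 491 CPM.

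Among GFP+ cone-like cells *Cdkn1c* was more even, with 0.507% of thinned G1 cells at 10 UMIs or more and 38.3% at 0. It was at 214 CPM in 96 cells with *Otx2* and without *Gngt2*, and at 435 CPM in cells with *Gngt2*. It was at 367 CPM in cells with *Fabp7* and 477 CPM in those without, 1.30-fold lower, and at 325 CPM in 404 cells with *Nrl* beside 443 CPM in the others. Cone-like cells without *Gngt2* were thus the lowest of these subsets. In the GFP- cone-like cells it was at 259 CPM, 1.65-fold lower than in GFP+ cone-like cells.

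*Cdkn1b* passed 2-fold in no group. It was at 25.5 CPM in multipotent-RPC-like, 30.4 in neurogenic-RPC-like, 23.2 in RGC-like, 17.7 in AC/HC-like and 44.5 in GFP+ cone-like cells. The cone-like level was 1.75-fold higher than the multipotent-RPC-like level. It was at 34.8 CPM in G2M and 20.7 CPM in S in multipotent-RPC-like cells, a ratio of 1.68, and at 36.9 and 27.1 CPM in neurogenic-RPC-like cells.

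The INK4 genes were highest in different cells. *Cdkn2c* was a gene of progenitors, at 19.5 CPM in multipotent-RPC-like and 29.2 in neurogenic-RPC-like cells, beside 3.56 in RGC-like, 1.47 in GFP+ cone-like cells and 2 UMIs in AC/HC-like cells. It was 5.48-fold lower in RGC-like, 20.98-fold lower (5.76 to 174) in AC/HC-like and 13.3-fold lower (8.63 to 21.5) in cone-like cells than in multipotent-RPC-like cells. In RGC-like G1 cells it was at 0.884 CPM (4 UMIs), 22.1-fold lower (8.53 to 81.5), close to the AC/HC-like ratio. *Cdkn2d* was found in each group. It was at 42.5 CPM in multipotent-RPC-like, 59.2 in neurogenic-RPC-like, 91.2 in RGC-like, 53.9 in AC/HC-like and 48.9 in GFP+ cone-like cells. Only RGC-like cells passed 2-fold, at 2.15-fold higher (1.91 to 2.41). Both RGC-like calls were lost with 2 marker UMIs, at log2 ratios of -0.98 for *Cdkn2c* and 0.90 for *Cdkn2d*. In RGC-like G1 cells *Cdkn2d* was at 95.0 CPM, 2.24-fold higher (1.98 to 2.53) than in multipotent-RPC-like cells. Among these it was at 51.6 CPM in the 96 cells with none of the 4 later markers and at 115 CPM in the 268 with 3 or more UMIs of them, 2.24-fold higher (1.64 to 3.13).

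Both INK4 genes were higher in G2M than in S. In multipotent-RPC-like cells *Cdkn2c* was at 31.3 CPM in G2M and 14.9 CPM in S, 2.11-fold higher (1.68 to 2.65), and *Cdkn2d* at 74.1 and 28.6 CPM, 2.59-fold higher (2.22 to 3.03). In neurogenic-RPC-like cells *Cdkn2c* was at 46.3 and 20.3 CPM, 2.28-fold higher (1.58 to 3.33), and *Cdkn2d* at 95.5 and 30.0 CPM, 3.18-fold higher (2.39 to 4.29). The direction was the same in both groups. In *Olig2*+ G2M cells *Cdkn2c* was at 62.6 CPM and *Cdkn2d* at 132 CPM, beside 33.7 and 67.5 CPM in *Olig2*- G2M cells. *Olig2*+ cells were also higher in S, at 40.7 and 51.5 CPM beside 15.9 and 25.3 CPM. The G2M over S ratio of *Cdkn2c* was 1.54 (0.868 to 2.91) within *Olig2*+ and 2.12 (1.29 to 3.55) within *Olig2*- cells. That of *Cdkn2d* was 2.57 and 2.66. In neurogenic-RPC-like G1 cells *Cdkn2c* was not detected, against 151 UMIs in S and G2M, at least 8.51-fold lower with a count of 0 bounded by 3 UMIs, and *Cdkn2d* was 2.55-fold lower. Between the phases of multipotent-RPC-like cells, 2 of 10 members were called higher in G2M, where 3.14% of genes were, and 1, *Cdkn1a*, lower, where 5.77% were. Between G1 and the other phases of neurogenic-RPC-like cells 1 member was higher (10.7% of genes) and 4 were lower (15.2% of genes). The members' median log2 ratio was -0.03 and -0.82 in these comparisons, and that of all genes -0.03 and 0.10.

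The make-up of inhibitor transcripts followed from these levels. *Cdkn1c* made up 53.04% of the UMIs of the 5 inhibitors in multipotent-RPC-like cells, 33.8% in neurogenic-RPC-like G2M and 86.9% in neurogenic-RPC-like G1 cells. It made up 65.7% in RGC-like G1, 94.9% in AC/HC-like G1 and 79.2% in cone-like G1 cells. *Cdkn2d* made up 21.1% in multipotent-RPC-like, 30.4% in neurogenic-RPC-like G2M, 3.43% in AC/HC-like G1 and 9.05% in cone-like G1 cells. Among G1 neurons the AC/HC-like cells were closest to holding a single inhibitor.

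*Cdkn1a*, a target of p53 and of stress pathways, was low in each group but differed between them. It was at 7.08 CPM in multipotent-RPC-like, 22.6 in neurogenic-RPC-like, 4.31 in RGC-like, 7.44 in AC/HC-like and 18.3 in GFP+ cone-like cells. Relative to multipotent-RPC-like cells it was 3.20-fold higher (2.45 to 4.17) in neurogenic-RPC-like and 2.58-fold higher (2.07 to 3.24) in cone-like cells. Without the 424 cone-like cells with stress transcripts described below, the cone-like level was 8.23 CPM, near that of multipotent-RPC-like cells. By phase *Cdkn1a* was at 8.68 CPM in S and 3.07 CPM in G2M in multipotent-RPC-like cells (94 and 15 UMIs), 2.83-fold lower (1.63 to 5.25). In neurogenic-RPC-like cells it was at 18.4 CPM in S, 29.3 in G2M and 13.4 in G1. Neurogenic-RPC-like G2M cells thus held 9.54-fold more (5.40 to 17.9) than multipotent-RPC-like G2M cells, from 69 and 15 UMIs.

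In cone-like cells most *Cdkn1a* lay in cells with transcripts of stress genes, called stress cells here. A set of 424 GFP+ cone-like cells held at least 3 UMIs of *Atf3*, *Ddit3*, *Trib3*, *Chac1*, *Asns*, *Sesn2*, *Slc7a3* and *Slc7a5*, which are targets of the stress-induced factor ATF4. The study describes *Slc7a3* and *Slc7a5* as raised in a subpopulation of its cones and relates them to thyroid hormone. *Cdkn1a* was at 88.8 CPM in the 424 stress cells (166 UMIs) and 8.23 CPM in the other 3191 (108 UMIs), 10.8-fold higher (8.41 to 13.9). Of all 3615 cone-like cells 3471 held no *Cdkn1a* UMI, and 25 held 3 or more, up to 26. Of these 25 cells, 19 were stress cells and held 105 of the 166 UMIs, and 6 were other cells and held 29 of the 108. Most of the stress cells' *Cdkn1a* thus lay in few cells. *Ccnd2* was at 34.8 and 12.3 CPM, 2.82-fold higher (2.08 to 3.78). *Cdkn2c* was 2.63-fold higher with an interval that reached 1 (0.844 to 7.08; 6 and 16 UMIs), and this call was lost without the upper limit on genes (log2 ratio 0.93), in thinned cells (0.31) and with 5 stress UMIs (0.40). *Cdk4*, at 391 and 511 CPM, was 1.31-fold lower in stress cells, and *Ccnd3* was at 149 and 178 CPM. Of the members 3 were called higher, where 4.84% of genes were, and 0 lower, where 5.1% were. The members' median log2 ratio was 0.15, beside 0.03 over all genes.

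The same split of GFP- cells gave another picture. Of 308 GFP- stress cells, 250 were multipotent-RPC-like, so that the comparison with the other 3081 also compared groups. In it 0 members were called higher (3.95% of genes) and 1, *Cdkn1c*, lower (11.4% of genes), at 85.5 and 267 CPM, 3.12-fold lower. Within multipotent-RPC-like cells, a comparison added after seeing the data, the *Cdkn1c* ratio was 0.667 and *Cdkn1a*, at 7.04 and 7.09 CPM, had a ratio of 0.994. There *Cdkn1b* was 1.69-fold higher (1.32 to 2.13) and *Cdkn2d* 1.66-fold higher (1.38 to 1.99). The *Cdkn1a* ratio was thus 10.8 in cone-like cells and 0.994 in multipotent-RPC-like cells, and the contrast between them was not tested. The limit of 3 stress UMIs was not adjusted for depth. Median UMIs per cell were 9317.5 in multipotent-RPC-like and 3882 in GFP+ cone-like cells, so the stress sets of these groups are not matched. Nor were stress and other cells matched for phase. Between G2M and S of multipotent-RPC-like cells the ratios of *Cdkn1b*, *Cdkn2d* and *Cdkn1c* went the same ways, at 1.68, 2.59 and 0.619. That of *Cdkn1a*, 0.354, did not match its stress ratio. The part of phase was not tested.

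**Figure D4:**
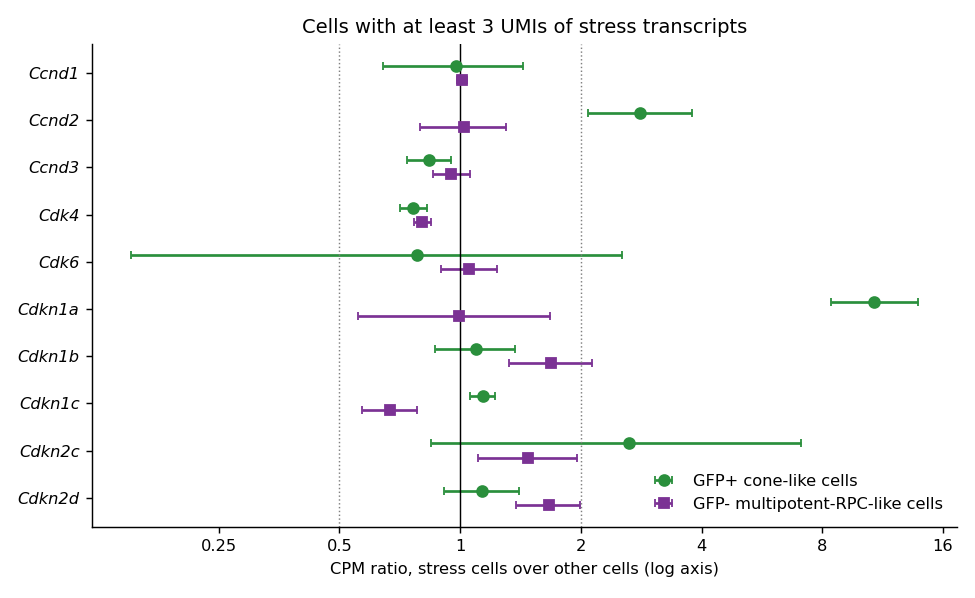
Ratio of CPM in stress cells to that in other cells (log axis) for the 10 genes, in GFP+ cone-like cells (circles) and GFP- multipotent-RPC-like cells (squares), with 95% intervals and dotted lines at 2-fold. *Cdkn1a* is 10.8-fold higher in cone-like stress cells and at a ratio of 0.994 in multipotent-RPC-like cells, and *Ccnd2* is 2.82-fold higher in cone-like stress cells. The limit of 3 stress UMIs was not adjusted for the unlike depths of these groups.

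The first promoter of *Cdkn1a* is shown because this gene differed most between stress and other cells. Of the 2 starts that RefSeq gives, the first had no ATF4-type motif and held a pair of CATG half-sites separated by 6 bases, part of the p53 motif, a pattern that was searched for after the sequence had been read and is present in 0.490% of promoters. It lies 48 bases before the start, in chr17:29090729-29090975 (GRCm38.p6, + strand), outside annotated exons, and is in capitals:
Cdkn1a: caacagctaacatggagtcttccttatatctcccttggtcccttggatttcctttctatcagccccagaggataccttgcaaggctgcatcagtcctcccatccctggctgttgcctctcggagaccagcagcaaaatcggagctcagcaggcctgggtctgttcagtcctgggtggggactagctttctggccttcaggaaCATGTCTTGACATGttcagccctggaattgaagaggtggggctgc
Other p53 targets were set beside *Cdkn1a* in cone-like stress cells. Of 11 tested from a list of 12, 1 was called higher, *Phlda3*, at 25.7 and 9.75 CPM, and 0 lower, beside 4.84% and 5.1% of all genes, and their median log2 ratio was 0.28, beside 0.03. *Mdm2*, a defining target, was at 83.4 and 68.3 CPM, and *Btg2* at 491 and 625 CPM.

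Other genes of the G1/S step and the p53 targets were set beside the members across the gates. Of 22 other G1/S genes 2 were higher and 13 lower in GFP+ cells, with a median log2 ratio of -1.26, beside 23% higher, 16.8% lower and a median of 0.29 over all genes. *Ccna2*, the S and G2 cyclin, was at 2.32 and 73.0 CPM, 31.5-fold lower, close to the ratio of *Ccnd1*. *E2f1* was 2.36-fold lower (40.2 and 94.8 CPM) and *Skp2*, whose product marks CIP/KIP proteins for degradation, 5.13-fold lower (10.9 and 55.9 CPM). *Ccne1* and *Ccne2*, cyclins that activate CDK2, were 5.51-fold and 12.7-fold lower. Of 12 p53 targets 6 were higher and 1 lower, with a median of 1.03, against the same values for all genes. Among them *Btg2*, an antiproliferative gene, was at 598 and 169 CPM, 3.54-fold higher, and *Ccng1* at 52.4 and 19.9 CPM, 2.63-fold higher.

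The same lists were compared with multipotent-RPC-like cells. In neurogenic-RPC-like cells 2 of 20 G1/S genes were higher and 0 lower, beside 5.54% and 9.94% of all genes. It was 2 and 8 in RGC-like cells (15.1% and 18.1% of all genes), 2 and 10 in AC/HC-like cells (17% and 19.9%) and 2 and 12 in GFP+ cone-like cells (29.3% and 15.9%). The lower calls thus exceeded the share over all genes in the 3 neuron groups. *Btg2* was 14.2-fold higher (13.0 to 15.5) in neurogenic-RPC-like cells, where *Cdkn1a* was also higher, and 15.2-fold higher in cone-like cells. *Myc* was 2.42-fold higher in neurogenic-RPC-like, 4.36-fold higher in RGC-like and 5.40-fold higher in cone-like cells. *Ccna2* was 119-fold lower in cone-like, 17.1-fold lower in AC/HC-like and 4.33-fold lower in RGC-like cells. *Skp2* was 7.40-fold lower in cone-like and 5.82-fold lower in AC/HC-like cells. Of p53 targets 1 of 10 was higher and 1 lower in neurogenic-RPC-like cells, 2 and 1 of 10 in RGC-like, 3 and 2 of 10 in AC/HC-like, and 6 and 2 of 12 in cone-like cells, beside the same shares of all genes. From S to G2M of multipotent-RPC-like cells 1 of 20 G1/S genes was higher, *Ccna2* at 4.79-fold, and 5 were lower (3.14% and 5.77% of all genes), among them *Ccne2* at 5.58-fold. In neurogenic-RPC-like G1 cells 1 was higher and 9 were lower than in S and G2M (10.7% and 15.2% of all genes), with *Skp2* 6.56-fold and *Cdk2* 4.10-fold lower. The genes that set the phases hold no member but may hold other G1/S genes, such as *Ccne2*. Differences of such genes between phases may then follow from the phase calls, and no conclusion is drawn from them.

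For the 6 members that reached 50 CPM in 1 of the sums, which *Ccnd2*, *Cdkn1a*, *Cdkn1b* and *Cdkn2c* did not, the genes with the most similar levels were sought over 10 sums of at least 50 cells by gate, group and phase, by Pearson's r of log2(CPM + 1) among 4776 genes. The sums come from 2 libraries and differ in depth, so r is a description. For *Ccnd1* the 3 closest genes were *Cdk6* (0.98), *Pla2g16* (0.98) and *2810417H13Rik* (0.97), and for *Cdk6* they were *Pla2g16* (0.99), *Zfp36l1* (0.98) and *Ccnd1* (0.98). *Ccnd1* and *Cdk6* were thus among the closest genes of each other. *Ccnd3* was closest to *Zdhhc6* (0.97), *Dpm3* (0.96) and *Ncor1* (0.95), and *Cdk4* to *Fbxw7* (0.98), *Igfbp2* (0.95) and *Psmd13* (0.95). *Cdkn1c* was closest to *Stx6* (0.96), *Fam212b* (0.95) and *Vps45* (0.95), and its r with *Ccnd1* was -0.74. *Cdkn2d* had no gene above 0.84, the value for *Sept7*.

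In the genome (GRCm38, GENCODE M21) *Ccnd1* lies at chr7:144929931-144939925 and *Cdkn1c* at chr7:143458339-143461050, on the minus strand of the same chromosome. *Ccnd3* (chr17:47505051-47599691) and *Cdkn1a* (chr17:29090976-29100727) share another, on the plus strand, and *Ccnd2* (chr6:127125162-127152193, minus) and *Cdkn1b* (chr6:134920401-134925513, plus) a further one. *Cdk4* is at chr10:127063534-127067920 (plus), *Cdk6* at chr5:3341485-3531008 (plus), *Cdkn2c* at chr4:109660876-109667189 (minus) and *Cdkn2d* at chr9:21288410-21291407 (minus). Genes on the opposite strand overlap 7 of the 10, among them *Tspan31* at *Cdk4*, *Bysl* at *Ccnd3* and *Gm44732* at *Cdkn1c*, and whether the counting used strand is not given in the sources used here.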

How the data were processed

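Single cells of GFP+ and GFP- sorted retinas were profiled with 3' droplet libraries, 1 per gate. The authors deposited raw UMI counts for each gene in each cell, not normalized, made with Cell Ranger 2.1.1 (mm10, GRCm38). The annotation version and the use of strand are not given in the sources used here.

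Kept were cells with 250 or more and fewer than 3500 genes and less than 0.25 of their UMIs from mitochondrial genes. Scrublet in scanpy 1.11.5 (expected rate 0.03) called 3 GFP+ and 55 GFP- doublets, 2 and 0 of them among kept cells, and they were left in. Others may remain uncalled. A cell that reached 3 marker UMIs of several neuron groups went to the group with over 2 times the next, otherwise to the mixed cells. A further marker used to set the multipotent-RPC-like group is not reported here. Phases came from scanpy's cell cycle scores. Thinning to 3200 UMIs left out 579 GFP+ and 28 GFP- cells.

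Genes with at least 10 UMIs in both sets together were compared by CPM. A count of 0 was bounded by 3 counts. All scripts used Python 3.11.15, numpy 2.4.6, pandas 2.3.3, scipy 1.17.1 and matplotlib 3.10.9, with edgeR 4.0.16 (R 4.3.3) for TMM factors only, and the ratios and intervals were tested on simulated data. PCR copies are collapsed by UMI, but sampling of embryos, dissociation and sorting are not covered by the intervals.

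The members and lists were chosen with earlier results of these data known. Named genes were the 10 members, the group markers, G1/S genes and p53 targets with at least 50 CPM in a gate and a ratio past 2-fold or with one past 4-fold between groups, and the 3 genes most like each of the 6 members that reached 50 CPM in the sums compared. *Mdm2*, *Phlda3*, the markers of other cell types and the genes used for subsets were named outside that rule. Alternatives were no cell filter, no upper limit, doublets left out, means of per-cell values, thinned cells, other minimums, folds and marker limits, TMM factors, mean UMIs per cell, cone-like GFP+ against other GFP- cells, and cells near a phase boundary left out. Stress cells within multipotent-RPC-like cells, and RGC-like cells called G1 alone, were chosen after seeing the data.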

Additional observations from a re-analysis of the deposited data

Results flagged for a closer look

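For 4 contrasts the direction differed between 2 sets of cells, with no test of the difference. From S to G2M, the log2 ratio of *Ccnd1* was 0.079 in multipotent-RPC-like cells and -1.33 in neurogenic-RPC-like cells. For the same contrast *Cdkn1a* was at -1.50 in multipotent-RPC-like and 0.67 in neurogenic-RPC-like cells, from 94 S and 15 G2M UMIs in the former. Between stress and other cells *Ccnd3* was at -0.26 in GFP+ cone-like and 0.39 in GFP- cells, and *Cdkn1c* at 0.19 and -1.64. In GFP- cells that last contrast also compared cell groups, since 250 of the 308 stress cells were multipotent-RPC-like, and within that group *Cdkn1c* was at -0.58.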

How the results depend on the processing

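With a fold of 1.5 in place of 2, the members past the limit were 7 in place of 3 between the gates, 6 in place of 3 between G2M and S of multipotent-RPC-like cells, and 5 in place of 1 between GFP- stress and other cells. With a fold of 4 they were 0 in neurogenic-RPC-like cells and between G2M and S of multipotent-RPC-like cells (3 in both at 2-fold), 2 in place of 5 between G1 and the other phases of neurogenic-RPC-like cells, 1 in place of 3 for stress in cone-like cells, and 0 for stress in GFP- cells. As mean UMIs per cell, 6 members differed between the gates. The GFP- stress count was 0 with no cell filter, with no upper limit on genes and within multipotent-RPC-like cells, and 2 in thinned cells. In RGC-like cells called G1 alone, 7 members passed 2-fold in place of 6. No value changed direction among those called. Of 650 log2 ratios of single members recomputed, 497 moved by less than their counting interval and 153 by more, and with doublets left out all 89 were among the former. The *Ccnd1* ratio of cone-like stress cells, -0.04, was 1.82 without the upper limit on genes and -1.60 with 5 stress UMIs. Shares of cells with a UMI reached 10% for 13 of 20 pairs of gate and member at full depth and for 11 in thinned cells. The causes of these shifts were not tested. No paired analysis was possible because each gate has 1 library, and no replicate could be left out.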
